A study of Mus musculus with 6 samples.

Results

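The multi-domain members of the BCL2 family were followed in Kit-positive bone marrow cells of Ints11 knockout mice. Ints11 encodes the catalytic endonuclease of the Integrator complex. All rows of the deposited count table with 1 of 10 symbols were taken: the survival genes Bcl2, Bcl2l1, Bcl2l2, Mcl1, Bcl2a1a, Bcl2a1b and Bcl2a1d, and the pore effector genes Bax, Bak1 and Bok. All 10 were among the 24062 listed genes and all 10 passed the filter on low counts, as did 15742 genes in all. Messenger RNA was sequenced from 3 Ints11 knockout mice (KO, carrying Mx1Cre and floxed Ints11 alleles, written flox/fox in the labels) and from 3 wild-type littermates (WT), all C57BL/6, 1 mouse per library. Cells were collected 4 days after poly(I:C), an RNA mimic that evokes interferon and so switches on the interferon-driven Mx1 promoter of the Cre transgene. The labels give that time for both genotypes. Mx1-Cre acts in many cell types of the marrow and beyond it, so the deletion is not restricted to progenitors. The sources used here do not give age, sex, or whether the WT mice carried the transgene or floxed alleles. The design text adds that the Kit-positive cells were lineage-negative.

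BCL2 proteins decide whether the outer mitochondrial membrane stays intact. BAX and BAK open pores in it that release cytochrome c, BOK is a related pore former that is held low by rapid degradation, and BCL2, BCL-xL (Bcl2l1), BCL-w (Bcl2l2), MCL1 and A1 (Bcl2a1) bind and restrain the effectors and the BH3-only activators. In blood formation MCL1 is needed by stem and progenitor cells, BCL-xL by maturing red cells and platelets, and A1 is abundant in neutrophils, mast cells and activated lymphocytes. Most of this regulation is at the level of protein, which messenger RNA counts do not show.

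Totals were 127011537 to 142983542 counts in KO and 124074531 to 166860739 counts in WT libraries. Levels are CPM, the usual read count scaled to library size, here to library totals adjusted by TMM factors, and differences are log2 changes of KO over WT with the standard error (SE) of edgeR's quasi-likelihood fit. An adjusted p is that test's Benjamini-Hochberg value over all 15742 genes, with a threshold of 0.05. Ints11, listed as Cpsf3l, had 64.4, 58.3 and 60.2 CPM in KO libraries, against 73.8, 92.3 and 78.9 CPM in WT libraries, a partial drop in a count that takes in all exons. The log2 change was -0.42 (adjusted p = 0.0174). The call was lost without KO_340 (adjusted p = 0.0557), without KO_345 (0.0541) and with the mature neutrophil marker level as a covariate (-0.21, adjusted p = 0.234). The reason for the partial drop was not tested. Kit was at 220 to 238 CPM in KO and 199 to 221 CPM in WT libraries, and all 5 progenitor markers (Kit, Cd34, Myb, Gata2, Ptprc) were well above 0 in every library. Cd34 (adjusted p = 0.0345, past the threshold in 9 of 15 alternatives) and Gata2 (adjusted p = 0.00306) were higher in KO. The library WT_341 stood apart from the other WT mice, with Slc4a1, a red cell marker, at 12.1 CPM against at most 0.683 CPM in any other library and C1qa, a macrophage marker, at 4.49 CPM against 56.4 and 53.5 CPM in WT_343 and WT_344. Mature neutrophil markers (11 listed of 12, as Ly6g was not analysed here) summed to 43740 to 57430 CPM in KO and 11420 to 36230 CPM in WT libraries, without overlap, and 4 of them were called higher. Of all tested genes 16.0% were called higher and 19.9% lower, the shares to set beside the counts of every marker list. In such bulk samples a change in the number of cells of a type and a change in RNA per cell cannot be told apart.

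The promoter windows of 5 members are printed: Bax and Bok, the effectors that were higher in KO, and the 3 A1 copies, whose counts are hard to separate. A link between these windows and the changes was not tested. They are RefSeq windows of 300 bases on GRCm38.p6, the assembly of mm10, 5' to 3' on the strand of the gene. Bax lies at chr7:45466849-45467148 (reverse strand) and Bok at chr1:93685325-93685624 (forward strand), and capitals mark a match to the p53 half-site. The A1 windows are Bcl2a1a at chr9:88956670-88956969 (forward strand), Bcl2a1b at chr9:89199023-89199322 (forward strand) and Bcl2a1d at chr9:88731801-88732100 (reverse strand), and capitals in Bcl2a1a and Bcl2a1d mark bases that differ from Bcl2a1b where the windows align.
Bax promoter: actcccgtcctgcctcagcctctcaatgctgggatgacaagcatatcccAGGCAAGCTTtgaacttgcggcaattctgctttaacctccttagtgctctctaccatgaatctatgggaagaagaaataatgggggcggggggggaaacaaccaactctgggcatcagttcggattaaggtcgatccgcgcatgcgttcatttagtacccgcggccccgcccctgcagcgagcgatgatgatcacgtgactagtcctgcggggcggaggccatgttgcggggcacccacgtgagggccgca
Bok promoter: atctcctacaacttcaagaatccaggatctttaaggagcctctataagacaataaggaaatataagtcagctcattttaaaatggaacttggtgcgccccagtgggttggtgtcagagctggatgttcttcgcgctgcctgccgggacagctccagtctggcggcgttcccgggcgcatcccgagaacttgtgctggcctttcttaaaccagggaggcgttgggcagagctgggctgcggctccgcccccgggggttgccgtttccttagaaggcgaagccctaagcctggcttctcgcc
Bcl2a1a promoter: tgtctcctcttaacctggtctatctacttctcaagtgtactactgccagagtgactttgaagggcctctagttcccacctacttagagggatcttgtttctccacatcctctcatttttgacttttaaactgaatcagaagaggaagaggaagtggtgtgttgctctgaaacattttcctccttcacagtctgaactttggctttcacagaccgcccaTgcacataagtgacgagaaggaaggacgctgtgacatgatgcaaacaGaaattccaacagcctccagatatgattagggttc
Bcl2a1b promoter: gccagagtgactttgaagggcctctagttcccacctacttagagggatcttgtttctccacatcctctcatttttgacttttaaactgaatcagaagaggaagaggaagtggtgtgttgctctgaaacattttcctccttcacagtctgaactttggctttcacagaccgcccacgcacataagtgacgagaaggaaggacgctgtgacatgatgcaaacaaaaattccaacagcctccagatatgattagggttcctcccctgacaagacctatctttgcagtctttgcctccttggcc
Bcl2a1d promoter: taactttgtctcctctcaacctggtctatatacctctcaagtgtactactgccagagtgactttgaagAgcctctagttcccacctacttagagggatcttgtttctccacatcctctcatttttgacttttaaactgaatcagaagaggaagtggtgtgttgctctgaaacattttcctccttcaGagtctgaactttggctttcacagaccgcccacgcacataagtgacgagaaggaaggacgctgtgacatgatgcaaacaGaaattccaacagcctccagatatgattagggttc

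A p53 half-site, searched on both strands with no mismatch, occurred in 1 of the 12 promoter windows of the 10 members, that of Bax (AGGCAAGCTT, whose first base is 201 bases before the start site), and in 8.36% of all 32851 windows. The Bok window held none. A consensus NF-kB site occurred in 1 of the 12 windows, 1 of 3 for Bcl2l1, and in 4.51% of all windows, with no overlap between the motifs. A match is a run of letters and not a shown binding site. Over 256 aligned positions the Bcl2a1a window was 99.2% identical to that of Bcl2a1b, with 2 substituted bases, and the Bcl2a1d window was 96.5% identical, with 3 substituted and 6 missing bases.

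In KO cells 3 of the 10 genes were called higher (16.0% of all tested genes were) and 1 was called lower (19.9% of all tested genes), so the share of members called, 4 of 10, was near the 35.9% of all genes called in either direction. Bok, Bax and Bcl2l1 rose and Bak1 fell. The libraries of KO and WT mice did not overlap for these 4 and for Bcl2l2 (5 of 10, against 53.9% of all tested genes), with 3 separate and higher in KO (25.6% of all tested genes) and 2 separate and lower (28.4%). The median log2 change was 0.51 over the 10 members and 0.01 over all tested genes. The member median lay between Bcl2a1a (0.50, not called) and Bcl2l1 (0.51). It leans on the 3 A1 rows, which were not called and are hard to separate, so it does not show a rise of the family. Effectors thus moved in both directions, though the fall rests on Bak1, which passed under only 5 of 15 alternatives. Of the 7 survival rows only Bcl2l1 passed the test, at an adjusted p of 0.0210.

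**Figure D1:**
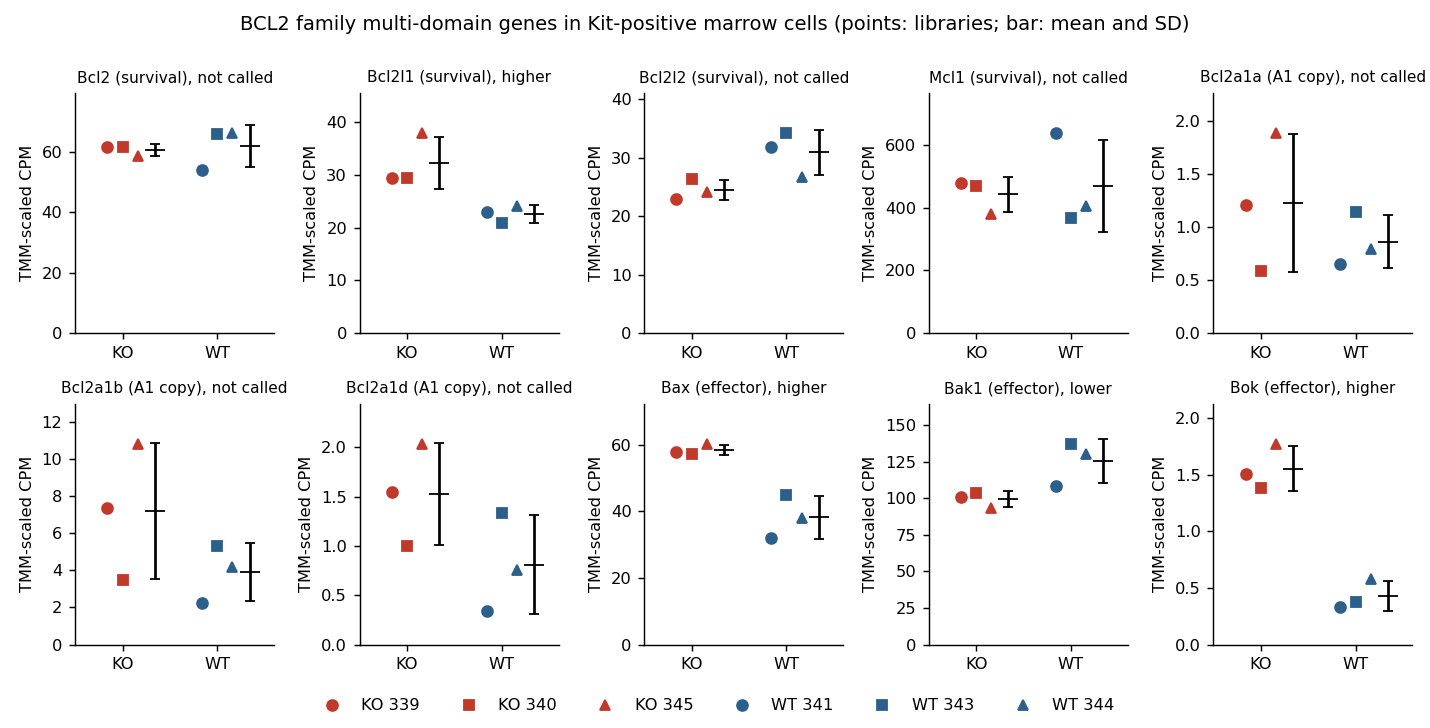
TMM-scaled CPM (vertical axes, each from 0) of the 10 genes in 3 KO (red) and 3 WT (blue) libraries, 1 symbol per library, with the mean and SD as a black bar. KO points lie above all WT points for Bcl2l1, Bax and Bok and below them for Bcl2l2 and Bak1, while Mcl1 is set by 1 high WT library at 637 CPM.

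Among the pore effectors, Bok changed most in proportion but from the lowest level. It was at 1.51, 1.38 and 1.77 CPM in KO libraries, against 0.333, 0.373 and 0.578 CPM in WT libraries, on raw counts of 220, 182 and 236 against 41, 59 and 84. Every KO library was well above the highest WT library. The fitted rise was 3.62-fold (log2 change 1.86 ± 0.29, SE; adjusted p = 0.00523). Bok lies on chromosome 1 (93685660 to 93695764, forward strand, GRCm38), with no other annotated gene over it. It passed under 14 of 15 alternative analyses, and with the neutrophil marker level as a covariate the change was 1.94 (adjusted p = 0.0585).

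Bax, the effector that moves from cytosol to mitochondria when activated and a known p53 target, was at 57.8, 57.2 and 60.1 CPM in KO libraries, against 31.9, 44.8 and 38.0 CPM in WT libraries. The KO libraries lay close together and all above the highest WT library. The rise was 1.53-fold (log2 change 0.61 ± 0.12, SE; adjusted p = 0.0116), and Bax was the member that passed under all 15 alternatives (log2 change 0.48 to 0.96, adjusted p = 6e-05 to 0.0437). Bax lies on chromosome 7 (45461697 to 45466898, reverse strand) and shares 192 bases of exon with the overlapping gene model Gm45808 on its own strand.

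Bak1, which encodes BAK, the effector that resides in the mitochondrial membrane, went the other way. Its level was 101.2, 103.9 and 93.4 CPM in KO libraries, against 108, 137 and 131 CPM in WT libraries. The gap between the highest KO and the lowest WT library, WT_341, was small. The drop was 0.33 ± 0.10 (SE) on the log2 scale (adjusted p = 0.0386). This call was lost without KO_339, KO_340, KO_345, WT_343 or WT_344 (adjusted p = 0.102, 0.0704, 0.119, 0.0856 and 0.111), and became clearer without WT_341 (log2 change -0.44, adjusted p = 0.00284). It was also lost with upper-quartile factors (-0.19), library totals only (-0.23), a filter of 1 CPM in 3 libraries (-0.26), sex as a covariate (-0.30) and the neutrophil covariate (-0.11). Bak1 (chromosome 17, 27019810 to 27029009, reverse strand) shares 614 exonic bases with Ggnbp1 on the opposite strand.

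Because Bax and Bak1 moved apart, their balance differed between the genotypes in a way that no scaling factor enters. The ratio of Bax to Bak1 counts was 0.571, 0.55 and 0.644 in KO libraries, against 0.294, 0.327 and 0.291 in WT libraries, 1.94 times as high on average. The ratios of the genotypes were far from overlapping. Per kilobase of annotated exon, Bax made up 46.1, 45.2 and 49.0% of effector transcripts in KO libraries and 30.9, 33.2 and 30.6% in WT libraries. Bok made up 0.936 to 1.23% in KO and 0.237 to 0.399% in WT libraries. These sums and ratios are descriptions with no test, since they combine the chosen genes.

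**Figure D2:**
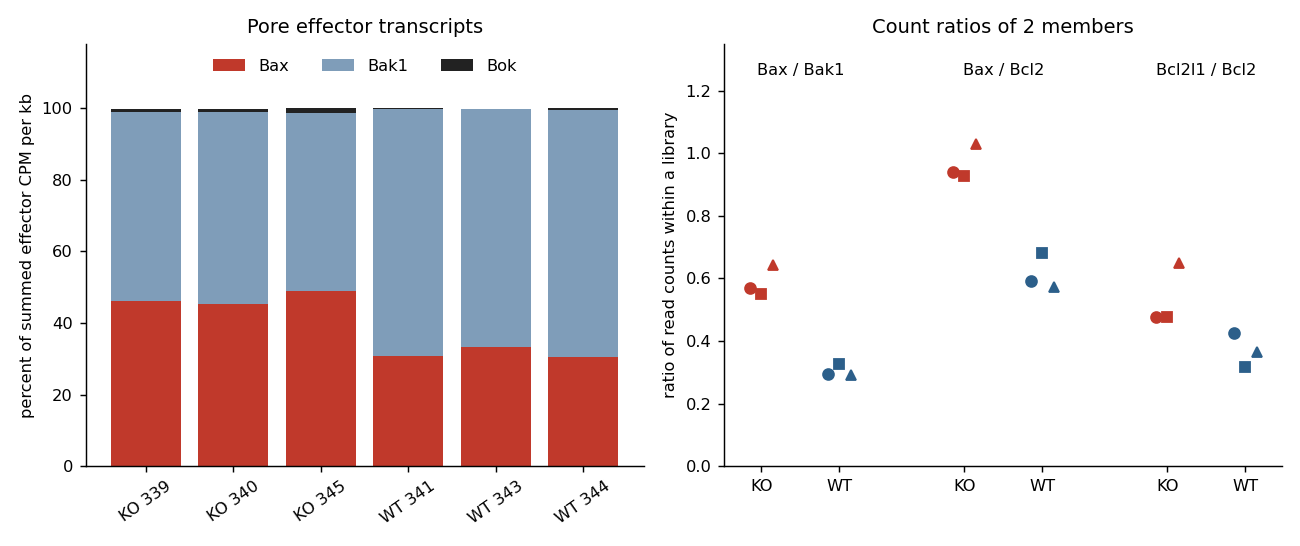
Left, share (percent of summed CPM per kb) of Bax, Bak1 and Bok in the effector transcripts of each library. Right, ratios of raw read counts of 2 members within each library, KO (red) left of WT (blue), with Bax over Bak1 between 0.55 and 0.644 in KO and between 0.291 and 0.327 in WT libraries.

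Of the survival genes, Bcl2l1, which encodes BCL-xL, was at 29.4, 29.4 and 37.9 CPM in KO libraries, against 22.9, 20.9 and 24.1 CPM in WT libraries. All KO libraries were above all WT libraries, and KO_345 was the highest. The rise was 1.42-fold (log2 change 0.51 ± 0.13, SE; adjusted p = 0.0210). It was lost without KO_345 (0.40, adjusted p = 0.0526), without WT_343 (0.45, adjusted p = 0.0550) and with the neutrophil covariate (0.45, adjusted p = 0.177). KO_345 was also the library with the highest summed megakaryocyte markers, which ranged from 99.1 to 148 CPM in KO and 43.9 to 65.1 CPM in WT libraries (8 listed, 4 called higher, none at 0 throughout). Erythroid markers (9 listed of 10; Epb42 was not analysed here) summed to 273 to 298 CPM in KO and 340.5 to 425.5 CPM in WT libraries, with 0 higher and 1 lower, Tfrc. Most of each sum was Tfrc, the transferrin receptor gene (214 to 219 CPM in KO, 284 to 389 CPM in WT). Without it the sums were 59.7, 57.2 and 79.5 CPM in KO libraries, against 138, 36.8 and 44.7 CPM in WT libraries, where WT_341 was above and the other WT libraries below every KO library. The part of these cell types in the Bcl2l1 change was not tested. Bcl2l1 lies on chromosome 2 (152780668 to 152831728, reverse strand).

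Bcl2, the founding survival gene, was nearly level, at 61.5, 61.6 and 58.4 CPM in KO libraries, against 53.9, 65.8 and 66.1 CPM in WT libraries. Its log2 change was -0.03 ± 0.10 (SE; adjusted p = 0.805) and took either sign among the alternatives, from -0.14 to 0.15. Relative to Bcl2 in the same library, Bcl2l1 counts were 0.477, 0.476 and 0.649 in KO and 0.425, 0.317 and 0.365 in WT libraries, and Bax counts 0.928 to 1.03 in KO and 0.574 to 0.681 in WT libraries. Neither ratio overlapped between the genotypes. Bax and Bcl2l1 taken alone did not overlap either, like 53.9% of all tested genes. Bax counts relative to Bcl2l1 did overlap, at 1.97, 1.95 and 1.59 in KO and 1.39, 2.15 and 1.57 in WT libraries. Bcl2 spans 176097 bases of chromosome 1 (106538178 to 106714274, reverse strand), the longest of the 10 genes, and shares 558 exonic bases with the antisense gene D630008O14Rik.

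Bcl2l2, which encodes BCL-w, was at 23.0, 26.4 and 24.2 CPM in KO libraries, against 31.9, 34.2 and 26.7 CPM in WT libraries. The groups were separate by a narrow margin between KO_340 and WT_344, and the test was not passed (log2 change -0.33 ± 0.12, SE; adjusted p = 0.0597). It passed with DESeq2 (adjusted p = 0.0381) and without WT_344 (-0.44, adjusted p = 0.0404). Bcl2l2 (chromosome 14, 54883377 to 54888234, forward strand) shares 594 bases of exon with the read-through gene model Gm20521 on its own strand, so reads there may be assigned to either or dropped.

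Mcl1, whose short-lived protein is the main guard of many blood progenitors, was the most abundant member by far. It had 479, 470 and 379 CPM in KO libraries, against 637, 367 and 404 CPM in WT libraries. The groups overlapped, and WT_341 alone held the WT mean of 469 ± 147 CPM (SD, n = 3) above the KO mean of 443 ± 55.1 CPM (SD, n = 3). The log2 change was -0.09 ± 0.21 (SE; adjusted p = 0.771), and 0.19 without WT_341 (adjusted p = 0.207). WT_341 was also the WT library with the most neutrophil marker RNA (36230 CPM summed, against 11420 and 21340 CPM). Every KO library had more of it, 43740 to 57430 CPM. WT_341 also led the WT libraries in B cell markers (94.4 CPM summed, against 26.0 and 38.6 CPM). The same held for erythroid markers without Tfrc (138 CPM, against 36.8 and 44.7 CPM). With the neutrophil level as a covariate the log2 change of Mcl1 was -0.62 (adjusted p = 0.0726). The part of these cells in the Mcl1 level was not tested. Mcl1 lies on chromosome 3 (95658788 to 95663176, forward strand).

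The A1 copies spread widely between mice of 1 genotype. Bcl2a1b was at 7.34, 3.48 and 10.8 CPM in KO libraries, against 2.22, 5.32 and 4.203 CPM in WT libraries. Bcl2a1d was at 1.54, 1.001 and 2.03 CPM in KO libraries, against 0.3406, 1.34 and 0.757 CPM in WT libraries, and Bcl2a1a at 1.21, 0.584 and 1.89 CPM against 0.657, 1.14 and 0.798 CPM. The groups overlapped for each copy, and none passed (log2 change 0.88, 0.91 and 0.50 in that order, adjusted p = 0.157, 0.180 and 0.384). Sex was read from whether Xist or the Y-linked gene Ddx3y had the higher CPM. With it as a covariate Bcl2a1b (1.23, adjusted p = 0.0229) and Bcl2a1d (1.39, adjusted p = 0.0318) passed. How the sexes were divided between the genotypes is not given here, so these calls cannot be told apart from that division. Bcl2a1d also passed with the neutrophil covariate (2.42, adjusted p = 0.0468).

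The copies lie within chromosome 9 at 88723285 to 88731914 (Bcl2a1d, reverse strand), 88956900 to 88962419 (Bcl2a1a, forward strand) and 89199209 to 89207827 (Bcl2a1b, forward strand). Their coding sequences of 516 bases, without the stop codon, differ from each other at 6 to 11 positions (97.9 to 98.8% identical). Of all stretches of 75 bases, the read length, in the annotated transcript, 31.6% in Bcl2a1b, 32.4% in Bcl2a1d and 44.8% in Bcl2a1a occur in no other gene's transcript. Of the other members, Bcl2l1, Mcl1 and Bok were unique in all such stretches, and Bcl2, Bax, Bcl2l2 and Bak1 in 85.9% or more. Bcl2a1b also shares 401 exonic bases with the gene model Gm29094 on its own strand. Levels of single A1 copies are therefore uncertain, and the sources used here do not say how reads that match several copies were treated. Summed over the copies, A1 was at 10.1, 5.07 and 14.7 CPM in KO libraries, against 3.22, 7.80 and 5.76 CPM in WT libraries, and Bcl2a1b took 68.3 to 73.4% of A1 counts in every library.

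KO_340 and WT_341, the lowest A1 libraries of their genotypes, were also the lowest of their genotypes in C1qa, a macrophage marker. C1qa was at 44.8, 11.3 and 62.8 CPM in KO_339, KO_340 and KO_345, against 4.49, 56.4 and 53.5 CPM in WT_341, WT_343 and WT_344. The macrophage list as a whole (7 listed of 8; Adgre1 was not analysed here) summed to 413 to 586 CPM in KO and 289 to 444 CPM in WT libraries, most of it Vcam1, and none of its members was at 0 in every library. T and NK cell markers summed to 21.4, 17.5 and 39.3 CPM in KO_339, KO_340 and KO_345, and to 9.04 to 10.8 CPM in WT libraries, so KO_345 was highest in A1 and in these markers. They had 8 listed members, 4 called higher and none at 0 throughout. Mast cell and basophil markers, of which 6 of 8 were called higher, summed to 647 to 792 CPM in KO and 347 to 441 CPM in WT libraries. B cell markers summed to 53.9 to 92.0 CPM in KO and 26.0 to 94.4 CPM in WT libraries (0 of 8 called), and monocyte and dendritic cell markers to 1013 to 1059 CPM in KO and 1650 to 1883 CPM in WT libraries (0 higher and 6 lower of 8). The part of these cells in the A1 levels was not tested.

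**Figure D3:**
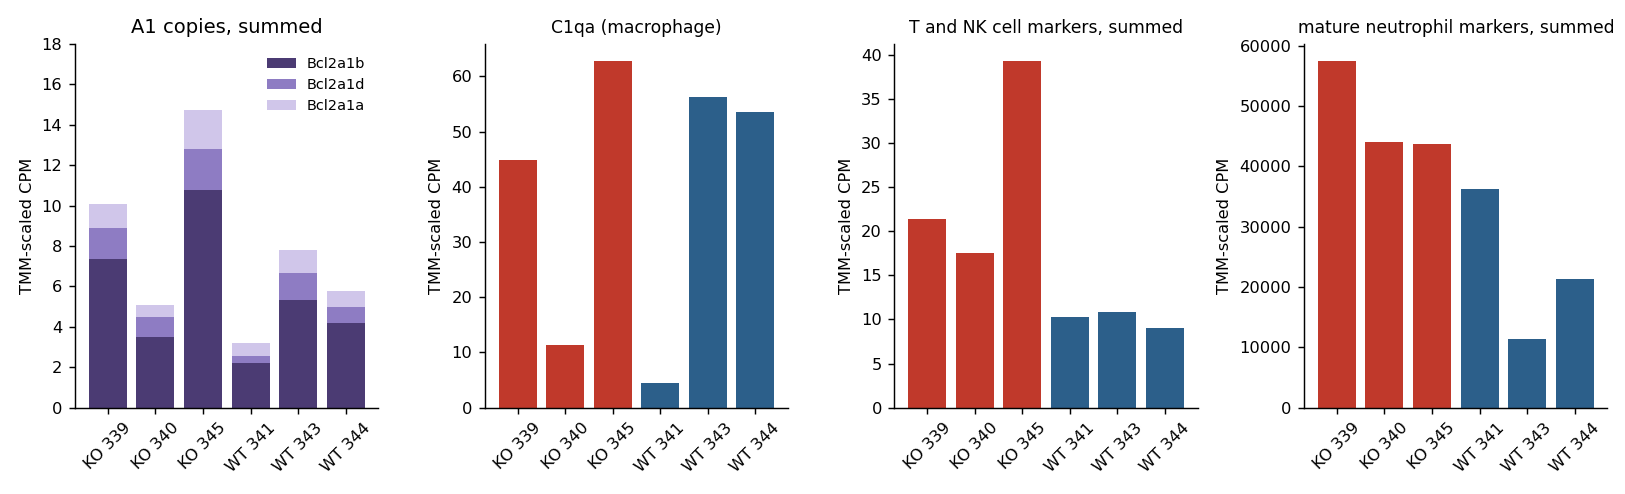
TMM-scaled CPM per library of the 3 A1 copies stacked, of C1qa, of 8 T and NK cell markers summed and of 11 mature neutrophil markers summed, with KO libraries (red in the marker panels) left of WT libraries (blue). A1 is lowest in KO_340 among KO libraries and in WT_341 among WT libraries, as is C1qa, whereas neutrophil markers are higher in every KO library.

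Levels of different genes were set side by side per kilobase of annotated exon. Mcl1 led with 129.5 ± 16.1 CPM per kb in KO and 137 ± 42.9 CPM per kb in WT cells (SD, n = 3 each). Bak1 (41.3 ± 2.27 in KO, 52.1 ± 6.25 in WT) and Bax (37.1 ± 0.975 in KO, 24.3 ± 4.12 in WT) came next, also in CPM per kb. In KO libraries the ranges of Bak1 (38.8 to 43.2) and Bax (36.3 to 38.2) nearly touched, whereas in WT libraries they were apart by more than their spread. Bcl2, Bcl2l1, Bcl2l2 and Bcl2a1b lay together at means of 5.50 to 8.82 CPM per kb in KO and 4.79 to 6.93 CPM per kb in WT cells, and their ranges overlapped between neighbours in the order, except that Bcl2 (6.38 to 6.73) was above Bcl2l2 (5.15 to 5.92) in every KO library and above Bcl2l1 (5.88 to 7.22 against 4.55 to 5.26) in every WT library. Bcl2a1d and Bcl2a1a followed at 1.77 and 1.5 CPM per kb in KO and 0.940 and 1.06 CPM per kb in WT cells, and Bok was last in both genotypes with 0.844 ± 0.107 in KO and 0.233 ± 0.0715 in WT (CPM per kb, SD, n = 3 each). With the longest coding transcript as the length, Bax (53.1 ± 1.40) stood above Bak1 (41.7 ± 2.28) in KO and below it in WT (34.8 ± 5.90 against 52.5 ± 6.30), in the same unit. With that length Bcl2l1 (11.4 to 14.8) was above Bcl2 (8.12 to 8.57) in every KO library. In WT libraries it was above Bcl2 in WT_341 (8.91 against 7.49) and WT_344 (9.40 against 9.20) and below it in WT_343 (8.12 against 9.15). The order of Bcl2 and Bcl2l1 thus depends on the length used. Mcl1 made up 74.5 to 84.5% of survival transcripts per kb in KO and 78.8 to 89.5% in WT libraries, and the effectors 31.8 to 34.4% of all 10 genes in KO and 23.9 to 38.6% in WT libraries, with overlap in both.

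**Figure D4:**
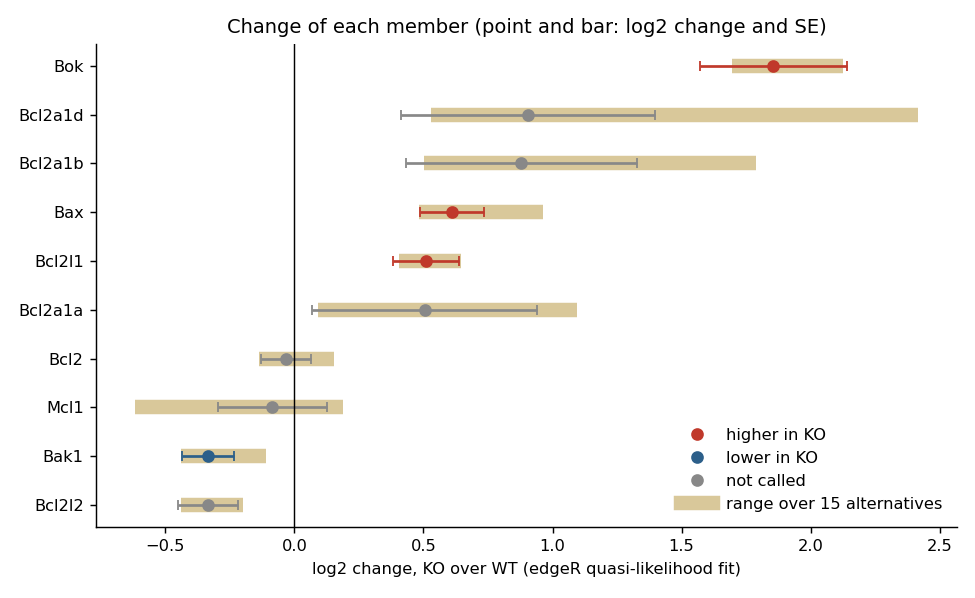
Log2 change of KO over WT for each gene (points, with the SE of the edgeR fit as thin bars) and the range of that change over 15 alternative analyses (tan bars). Bok (1.86), Bax (0.61) and Bcl2l1 (0.51) lie above 0 and Bak1 (-0.33) below it over their whole ranges. The ranges of Bcl2l2 and of the A1 copies, which were not called, do not cross 0 either, while those of Bcl2 and Mcl1 do.

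The BH3-only genes encode the proteins that engage these survival proteins and effectors. Of 8, 7 were tested, 2 rose and 1 fell, with a median log2 change of 0.53. Of all tested genes 16.0% were called higher and 19.9% lower. Bbc3, which encodes PUMA, a p53 target that binds all survival members, was at 12.7, 15.5 and 14.0 CPM in KO libraries, against 2.64, 3.16 and 3.98 CPM in WT libraries (log2 change 2.11 ± 0.18, SE; adjusted p = 0.00144). Bcl2l11, which encodes BIM, was at 46.0, 46.2 and 54.2 CPM in KO libraries, against 35.6, 28.9 and 34.9 CPM in WT libraries (log2 change 0.56 ± 0.11, SE; adjusted p = 0.0116). Bid, whose cleaved product activates BAX and BAK, was at 52.5, 51.8 and 47.4 CPM in KO libraries, against 70.6, 89.4 and 75.7 CPM in WT libraries (log2 change -0.63 ± 0.10, SE; adjusted p = 0.00606). In each of these 3, and in Bik, the genotypes did not overlap (4 of 7 tested, against 53.9% of all tested genes). Pmaip1, which encodes NOXA, an MCL1 binder and also a p53 target, averaged 92.5 CPM in KO and 97.6 CPM in WT cells (log2 change -0.08, adjusted p = 0.736). Bad (0.07), Bmf (0.53) and Bik (1.10, at 0.220 CPM in KO and 0.103 CPM in WT) did not pass, and Hrk had at most 2 counts in a library. With the neutrophil covariate Bbc3 passed and Bcl2l11 (0.38, adjusted p = 0.143) and Bid (-0.41, adjusted p = 0.0619) did not.

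Of 8 genes around p53, which activates Bax and Bbc3, 6 rose and 0 fell (16.0% and 19.9% of all tested genes did), with a median log2 change of 1.86. The list was drawn up with results of these samples known, so it is no independent evidence. Trp53 itself was level (94.5 CPM in KO, 92.1 CPM in WT, adjusted p = 0.795), as was Mdm4, the most counted member (log2 change -0.04, adjusted p = 0.769). The p53 ubiquitin ligase gene Mdm2 (log2 change 0.94), the cyclin gene Ccng1 (1.21), the cell cycle inhibitor gene Cdkn1a (2.51), the RNA-binding protein gene Zmat3 (2.74), the Akt inhibitor gene Phlda3 (3.67) and the receptor gene Eda2r (4.76) passed here and in all 15 alternatives. The change of Bax, 0.61, was smaller than each of these.

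Downstream of the pore, 4 of 10 genes of mitochondrial release and the apoptosome were called lower (19.9% of all tested genes were), with a median log2 change of -0.36. Cycs, which encodes cytochrome c, averaged 68.5 CPM in KO and 108 CPM in WT cells (log2 change -0.66, adjusted p = 0.0112), and did not pass with the neutrophil covariate (-0.28, adjusted p = 0.128). Diablo (-0.70) and Htra2 (-0.81), whose products bind inhibitors of apoptosis, and Aifm1 (-0.71), a mitochondrial flavoprotein gene, also fell, and all 3 passed under all 15 alternatives. Apaf1, the apoptosome scaffold gene and the most counted of the list, averaged 264 CPM in KO and 286 CPM in WT cells (adjusted p = 0.201).

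Of 10 genes whose products meet BAX, BAK or BCL2 at mitochondria or the endoplasmic reticulum, 1 rose and 7 fell, with a median log2 change of -0.38. Of all tested genes 16.0% rose and 19.9% fell. The falling genes of the list included Vdac2 (231 CPM in KO, 298 CPM in WT, log2 change -0.36), the channel that recruits BAK and BAX to mitochondria, Vdac1 (-0.41) and Vdac3 (-0.40). Also falling were Mtch2 (-0.57), the mitochondrial receptor of cleaved BID, and the membrane fission and fusion genes Dnm1l (-0.42) and Opa1 (-0.33). Among the calcium channel genes that BCL2 proteins bind, Itpr1 fell (182.5 CPM in KO, 293 CPM in WT, log2 change -0.68) and Itpr2 rose (113 CPM in KO, 65.4 CPM in WT, log2 change 0.79), while Tmbim6, the most counted, did not pass (-0.12). The adjusted p of these 8 calls was between 0.00419 and 0.0372. With upper-quartile factors or library totals 5 of the list were lower, and with the neutrophil covariate 1 was lower and 1 higher. The calls of Vdac2 and Opa1 were among those lost with either scaling, and the adjusted p of Vdac2 reached 0.553 and that of Opa1 0.343 over the alternatives.

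Of 8 regulators of MCL1 turnover, 7 were tested, 2 rose and 2 fell (16.0% and 19.9% of all tested genes did), with a median log2 change of 0.03. Huwe1, which encodes the MCL1 ubiquitin ligase MULE, averaged 568 CPM in KO and 823 CPM in WT cells (log2 change -0.54, adjusted p = 0.0103), and did not pass with the neutrophil covariate (-0.29, adjusted p = 0.0896). Tpt1, which encodes an MCL1-binding protein, averaged 546 CPM in KO and 688 CPM in WT cells (-0.33, adjusted p = 0.0263). It did not pass with upper-quartile factors, library totals, the 1 CPM filter or any KO library left out (adjusted p up to 0.135). Nor did it pass with the neutrophil covariate (-0.41, adjusted p = 0.0679). Ier3 (46.0 CPM in KO, 24.2 CPM in WT, log2 change 0.93) and the ERK phosphatase gene Dusp6 (187 CPM in KO, 89.8 CPM in WT, 1.06) rose and passed under all 15 alternatives.

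**Figure D5:**
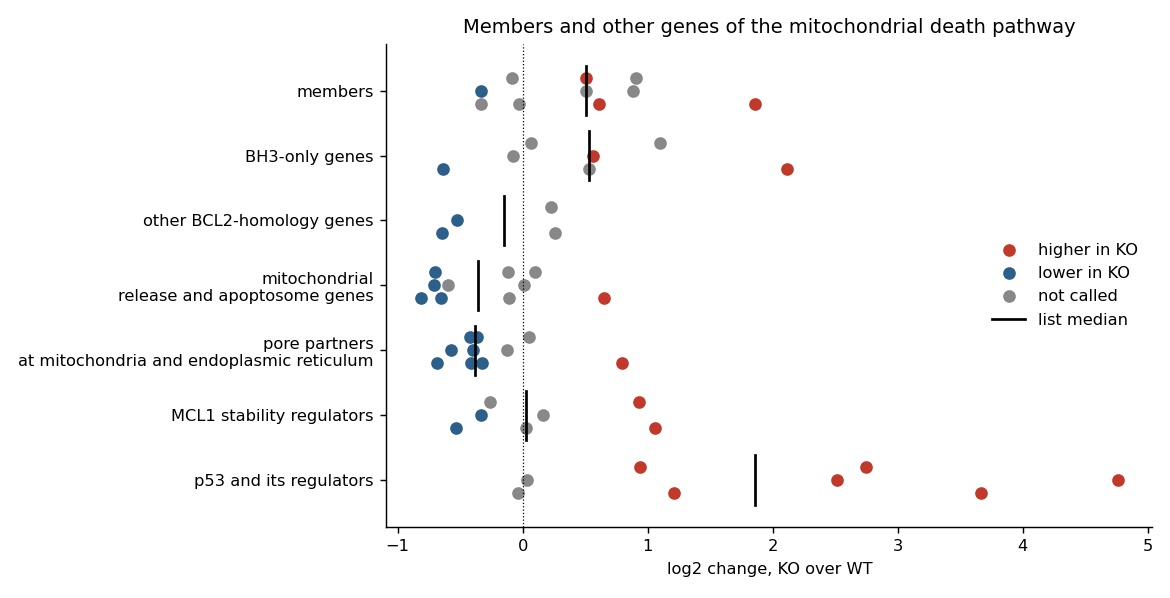
Log2 change of KO over WT for every tested gene of the 10 members and of 6 related lists (points, red higher, blue lower and grey not called), with the median of each list as a black line. Points of the members, the BH3-only genes and the regulators of MCL1 fall on both sides of 0, whereas no p53 list gene is called lower and 7 of 10 pore partners are.

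The genes whose log2 CPM followed a member most closely over the 6 libraries were found among tested genes with a mean of at least 5 CPM (9812 or 9813 genes), by Pearson's r. The difference between genotypes is part of each r, so these are descriptions. For Bok, the member with the largest rise, they were Mfge8, Sulf2, Mrvi1 and Cep170b (r = 0.996 to 0.997). Sulf2, which encodes a heparan sulfatase, averaged 12.9 CPM in KO and 2.58 CPM in WT cells. For Bak1, the called member with the largest drop, they were Arl6ip5, Rpl13, Trps1 and Stt3b (r = 0.996 to 0.997), with Rpl13, a ribosomal protein gene, at 425.6 CPM in KO and 530.0 CPM in WT cells. For Bcl2a1b, the most counted A1 copy, they were H2-Eb1, Itsn1, Ccnd1 and Sde2 (r = 0.987 to 0.991). H2-Eb1, an MHC class II gene, averaged 37.1 CPM in KO and 25.1 CPM in WT cells.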

How the data were processed

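Messenger RNA libraries of 3 KO and 3 WT mice were compared. Per the labels' protocols, total RNA was isolated with TRIzol, and strand-specific TruSeq libraries were sequenced as paired reads of 75 bases. The authors deposited raw counts per gene symbol without normalization. The submitters' processing notes name FastQC, Trimmomatic, STAR, HTSeq and mm10; the sources used here do not give versions, annotation, strand setting or the treatment of reads with several positions. No column of the table belonged to other samples.

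The quasi-likelihood test of edgeR (version 4.0.16, under R version 4.3.3) was run with robust glmQLFit and glmQLFTest on genes kept by filterByExpr (minimum count 10, minimum total 15), with TMM factors and Benjamini-Hochberg adjustment. The SE is the absolute log2 change divided by the square root of F. Alternatives used RLE, upper-quartile or no scaling factors, other filters, DESeq2 1.42.0, limma-voom (limma 3.58.1), each library left out, and the neutrophil marker level (mean log2 CPM, prior count 2) or sex as a covariate. Positions and exon lengths came from GENCODE M21 on GRCm38, matched by symbol for all 10 members, and promoters from RefSeq. Library pairs differed by a chi-square of 58.7 or more per degree of freedom, so none was deposited more than once. The members, lists and alternatives were chosen with earlier results of these data known. Genes named are all members, all BH3-only genes, of each other list the called genes and the most counted one, and the genes most like 3 members. A result for 1 gene that this rule names is not reported here.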

Additional observations from a re-analysis of the deposited data

How the results depend on the processing

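Leaving out 1 library at a time gave between 2302 (without KO_339) and 7879 (without WT_341) called genes, against 5659, with 2966 without KO_345, 3270 without WT_344 and 3316 without KO_340. It gave 2 or 3 higher and 0 or 1 lower members, against 3 and 1. The neutrophil covariate left 1255 called genes, 15 called genes in the pathway lists against 28, and 2 higher and 0 lower members. Its level was higher in every KO library, so it overlaps with genotype, and the cause of lost calls was not tested. Lower members were also 0 with upper-quartile factors, library totals only, the filter of 1 CPM in 3 libraries and sex as a covariate, and 2 with DESeq2; higher members were 5 with sex as a covariate. Higher genes made up 44.5% of calls under TMM, against 64.2% (upper-quartile) and 58.8% (totals), where the median log2 change of all genes was 0.15 and 0.11 in place of 0.01; Bax, Bok and Bcl2l1 stayed higher and past the threshold under both.

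Signs turned only for genes that did not pass. Bcl2 was 0.10 with upper-quartile factors, 0.069 with library totals, 0.041 with the 1 CPM filter, 0.15 with the neutrophil covariate, 0.0085 with sex, and -0.14 to 0.023 with a library left out. Mcl1 was 0.040 with upper-quartile factors, 0.0060 with library totals and -0.24 to 0.19 with a library left out. Mdm4 was 0.091, 0.056 and 0.031 with upper-quartile factors, library totals and the 1 CPM filter, and -0.12 to 0.057 with a library left out. Pmaip1 was 0.056 and 0.019 with these scalings and -0.18 to 0.12 with a library left out, Apaf1 0.018 and Tmbim6 0.015 with upper-quartile factors, Bmf -0.13 with the neutrophil covariate, Bad -0.069 to 0.14 and C1qa -0.48 to 0.54 with a library left out. Without replicate numbers shared between genotypes, no paired analysis was possible. Counts were lowest for Bok and the A1 copies, 41 to 1440 per library, where counting error weighs most.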

Other observations

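Among 6 further genes with BCL2 homology, 4 were tested, 0 rose and 2 fell (16.0% and 19.9% of all tested genes did). Bcl2l13, which encodes an outer membrane protein that acts as a mitophagy receptor, was at 65.5, 68.4 and 71.8 CPM in KO libraries, against 111, 104 and 107 CPM in WT libraries (log2 change -0.65 ± 0.07, SE; adjusted p = 0.00268). It passed under all 15 alternatives (log2 change -0.69 to -0.51). Bcl2l12 averaged 9.35 CPM in KO and 13.5 CPM in WT cells (log2 change -0.53, adjusted p = 0.0179), a call lost without KO_339, KO_340, KO_345 or WT_344 (adjusted p = 0.0595, 0.0642, 0.0614 and 0.0634) and with the neutrophil covariate (-0.38, adjusted p = 0.21). Bcl2l14 (0.26) and Bcl2l15 (0.23) did not pass, and Bcl2l10 and Bcl2a1c had at most 4 counts in a library.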
